A study of Arabidopsis thaliana with 7 samples.

Results

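The 9 ATG8 genes of Arabidopsis thaliana (ATG8A to ATG8I) were followed in roots of wild-type Col-0 plants and of the cepd mutant, which lacks the CEPD proteins, during N starvation. The genes were chosen by their identifiers, namely AT4G21980 (ATG8A), AT4G04620 (ATG8B), AT1G62040 (ATG8C), AT2G05630 (ATG8D), AT2G45170 (ATG8E), AT4G16520 (ATG8F), AT3G60640 (ATG8G), AT3G06420 (ATG8H) and AT3G15580 (ATG8I). They are 9 of the 32833 genes counted, and all 9 had enough counts to be tested. Both genotypes are in the Col-0 background. The cepd plants carry mutations in ROXY6, ROXY7, ROXY8 and ROXY9, made with CRISPR/Cas9 and combined in a quadruple mutant. ROXY proteins of this group are glutaredoxin-like proteins that travel from shoots to roots. In the paper, low N strongly raised ROXY8 and ROXY9 transcripts in shoots and slightly raised ROXY6. ROXY7 did not depend on N supply. Seedlings had 7 d on full nutrition (FN) medium (2 mM KNO3, 1 mM NH4NO3 and 1 mM glutamine) and then 2 d on low N (LN) medium (0.1 mM KNO3 and 50 µM NH4NO3). Each library held pooled roots of 50 seedlings from 5 plates, and the libraries came from 4 independent experiments. Libraries with equal replicate numbers were treated as coming from the same experiment, which the sample labels do not state. Col-0 was represented by 3 libraries, numbered 1, 3 and 4, and cepd by 4, numbered 1 to 4. The authors had removed a Col-0 library because it contained leaf material. All libraries came from LN roots, so the comparison is between genotypes and does not show the response of ATG8 genes to N supply.

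Autophagy delivers cytoplasm and organelles to the vacuole, where they are broken down and their amino acids reused. It is induced when plants lack N or carbon, and Arabidopsis mutants without it turn yellow early under these conditions. ATG8 is the small ubiquitin-like protein that marks the autophagosome. The protease ATG4 trims its C-terminal end to expose a glycine, ATG7 activates this glycine, and ATG3 passes it on to the lipid phosphatidylethanolamine with the help of the ATG12-ATG5-ATG16 complex. Lipid-bound ATG8 sits in the growing membrane and binds cargo receptors such as NBR1. Yeast has a single ATG8 gene, whereas plants have families of them. Transcript levels do not show whether autophagosomes are formed, and no protein or flux was measured in these libraries.

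The ends of the coding sequences show how the family divides. The last 42 bases of each are printed from RefSeq (TAIR10.1), 5′ to 3′ on the coding strand and with the stop codon, and the capitals mark the codon of the glycine that carries the lipid.
ATG8A: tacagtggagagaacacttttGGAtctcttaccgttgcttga
ATG8B: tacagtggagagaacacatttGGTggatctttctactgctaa
ATG8C: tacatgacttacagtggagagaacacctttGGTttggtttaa
ATG8D: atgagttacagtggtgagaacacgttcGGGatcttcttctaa
ATG8E: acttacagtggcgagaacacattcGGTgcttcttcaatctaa
ATG8F: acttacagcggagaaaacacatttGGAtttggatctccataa
ATG8G: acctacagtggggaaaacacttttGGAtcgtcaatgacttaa
ATG8H: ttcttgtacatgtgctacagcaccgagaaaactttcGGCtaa
ATG8I: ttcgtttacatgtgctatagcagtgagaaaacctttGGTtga
In ATG8H and ATG8I the glycine codon is followed directly by the stop codon, so 0 residues follow the glycine and their proteins need no trimming by ATG4 to expose it. The other 7 genes encode 2 (ATG8C) to 5 (ATG8A and ATG8B) residues after the glycine. The encoded proteins are 115 (ATG8I) to 122 (ATG8A, ATG8B and ATG8E) residues long. ATG8A and ATG8B were the most alike pair, with 87.7% identical residues, and ATG8F and ATG8H the least alike, with 48.72%. ATG8H and ATG8I shared 68.7% with each other. In spite of this likeness, 0 of the 50-base stretches in the exons of any member occurred elsewhere in the genome, so that reads of at least this length can be assigned to 1 member.

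The genes lie apart from each other on chromosomes 1, 2, 3 and 4 (TAIR10.1). ATG8A is at chr4:11655562-11657034 and ATG8F at chr4:9306339-9308538, and ATG8G is at chr3:22415751-22417548. ATG8E has 4 coding exons and every other member has 5. Exons of ATG8A overlap those of APR3, a sulfate assimilation gene on the opposite strand, by 27 of 945 bp. The library kit does not mark strand, so reads in this stretch cannot be assigned by strand. APR3 itself was at 88.8 to 125 CPM in Col-0 and at 137 to 177 in cepd. ATG8I overlaps AT3G15578 by 183 of 992 bp, and this neighbour was at 0 CPM in all 7 libraries.

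TGA factors, the transcription factors with which CEPD proteins interact, bind DNA around the core TGACG, and TGA9 has been reported in Arabidopsis to activate ATG8 genes. The 300 bases from 250 before to 50 after the annotated gene start of 3 members are shown because these 3 were the members called when libraries were compared within experiments. They lie at chr4:11655312-11655611 (ATG8A, plus strand), chr4:9308489-9308788 (ATG8F, minus strand) and chr3:22415501-22415800 (ATG8G, plus strand), and TGACG, or its reverse complement CGTCA, is in capitals.
ATG8A: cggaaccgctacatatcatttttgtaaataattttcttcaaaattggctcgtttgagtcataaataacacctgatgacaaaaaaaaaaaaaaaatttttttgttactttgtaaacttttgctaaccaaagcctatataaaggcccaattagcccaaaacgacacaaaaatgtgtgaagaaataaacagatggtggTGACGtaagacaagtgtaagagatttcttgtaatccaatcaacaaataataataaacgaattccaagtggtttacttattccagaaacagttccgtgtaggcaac
ATG8F: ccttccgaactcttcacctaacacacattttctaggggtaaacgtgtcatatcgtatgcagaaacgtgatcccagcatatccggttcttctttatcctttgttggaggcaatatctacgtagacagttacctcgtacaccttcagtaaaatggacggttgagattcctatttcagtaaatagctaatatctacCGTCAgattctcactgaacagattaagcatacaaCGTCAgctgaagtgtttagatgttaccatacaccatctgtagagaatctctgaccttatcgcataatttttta
ATG8G: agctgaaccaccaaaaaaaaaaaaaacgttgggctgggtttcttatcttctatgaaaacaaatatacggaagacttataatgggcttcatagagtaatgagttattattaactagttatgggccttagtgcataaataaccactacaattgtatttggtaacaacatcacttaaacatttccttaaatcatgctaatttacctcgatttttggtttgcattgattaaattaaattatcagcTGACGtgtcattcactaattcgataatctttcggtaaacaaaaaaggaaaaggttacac
ATG8A had 1 match, starting 55 bases before the gene start, and ATG8G had 1, starting 9 bases before it. ATG8F had 2 matches, both as CGTCA, at 57 and 23 bases before the start. In this window, 6 of 9 members held at least 1 match (ATG8A, ATG8E, ATG8F, ATG8G, ATG8H and ATG8I) against 23.1% of 27444 protein-coding genes. In the 1000 bases upstream, 8 of 9 members held one (all but ATG8D) against 54.1% of these genes. Only TGACG and its reverse complement were counted. The paper also counts TACGTA as a TGA-binding site, and this occurs unmarked in the printed stretch of ATG8F. A match describes the letters only, and binding was not measured here.

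The libraries held 30758339 to 46611731 counts. All 6 root markers were present in every library, and 3 of them differed between genotypes in edgeR. The root hair gene COBL9 (log2FC -0.61) and the nitrate transporter gene NRT2.1 (log2FC -1.17) were lower in cepd. PYK10 (log2FC 1.05) was higher, and CASP1, SCR and SHR did not pass the test. The paper reports reduced NRT2.1 expression after loss of CEPDs, so the level of this marker depends on genotype. Leaf markers were present in all libraries and differed between genotypes, with 6 of 11 higher in cepd and 0 lower. Their summed level was 205 to 273 CPM in Col-0 against 486 to 652 in cepd. Their means went from 1.40 CPM (RBCS1B) to 57.2 (LHCB1.3) in Col-0 and from 1.99 to 172 in cepd for the same genes. In the paper, the genes that were higher in cepd on LN were enriched for photosynthesis among other terms. The part of root and leaf markers in the ATG8 values was not tested. Transcripts of ROXY6, one of the mutated genes, were at 5.23 to 5.96 CPM in Col-0 and 2.79 to 4.48 in cepd, ROXY7 and ROXY8 overlapped between genotypes, and ROXY9 was at or below 0.0271 CPM in every library. Small edits need not remove a transcript, so these values say little about the genotype. In bulk root RNA, fewer cells of a type and less transcript per cell cannot be told apart.

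All 9 ATG8 transcripts were readily detected, with 332 (ATG8G) to 6990 (ATG8A) counts per library. Levels are given as CPM (counts scaled to a common library size with TMM factors), and levels of different genes are compared as CPM per kb of exon. In Col-0, ATG8A led the order with 165 ± 29.2 CPM per kb (SD, n = 3), followed by ATG8E with 93.8 ± 22.3 and ATG8H with 82.6 ± 8.52 CPM per kb. ATG8F (45.6 ± 5.04), ATG8I (37.0 ± 5.50), ATG8C (28.0 ± 4.24) and ATG8D (27.0 ± 3.96) were intermediate, and ATG8B (18.0 ± 6.74) and ATG8G (12.3 ± 2.05) were lowest. In cepd the order was the same, from 138 ± 19.6 CPM per kb (SD, n = 4) for ATG8A to 9.73 ± 1.23 for ATG8G. Of the neighbours in this order, only ATG8A and ATG8E, and ATG8H and ATG8F, had ranges that did not overlap in Col-0. In cepd only ATG8E and ATG8H, and ATG8I and ATG8C, overlapped. The members without residues after the glycine, ATG8H and ATG8I, thus ranked 3 and 5 in this order.

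**Figure D1:**
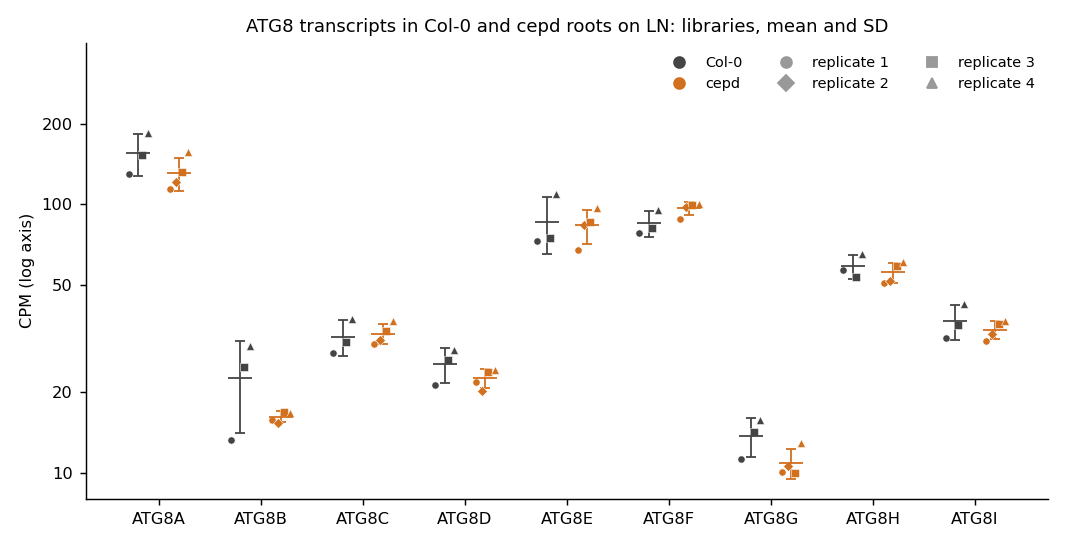
CPM (log axis) of the 9 ATG8 genes in 3 Col-0 and 4 cepd libraries; each symbol is 1 library, with its shape giving the replicate number, and the bars give the mean and SD. The Col-0 and cepd libraries overlap for every member, and the triangles of replicate 4 are the highest Col-0 libraries for all 9.

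The question addressed by the comparison was whether loss of the CEPD proteins altered ATG8 transcript levels in N-starved roots. For none of the 9 members did all cepd libraries lie above or below all Col-0 libraries, although this was the case for 15.3% (above) and 13.8% (below) of the 20600 genes tested. The edgeR quasi-likelihood test, adjusted over all these genes, called 0 members lower and 0 members higher in cepd (adjusted p under 0.05), where 8.3% of all genes were lower and 9.64% higher in cepd. With the additional requirement of an absolute log2FC over 1, again 0 members were called, against 4.38% of all genes. At an unadjusted p under 0.05, edgeR found 1 member lower (ATG8G) and 0 higher. DESeq2 called 0 members after adjustment, where it called 10.3% of all genes lower and 9.72% higher. With limma-voom 0 members were called as well, where 7.82% of all genes were lower and 9.5% higher. At an unadjusted p under 0.05, DESeq2 found 2 members lower and limma-voom 1. The share of all genes at this unadjusted threshold was not counted, so these member counts have no background. The median log2FC of the family was -0.10 (range -0.48 to 0.18), and that of all genes tested was 0.007. The summed level of the family was 443, 495 and 609 CPM in Col-0 and 430, 465, 497 and 542 in cepd, with means of 516 ± 84.9 and 483 ± 47.9 CPM.

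ATG8A, the most abundant member, was at 129, 153 and 184 CPM in Col-0 (in the order of replicates 1, 3 and 4) and 114, 121, 132 and 156 in cepd (replicates 1 to 4). The cepd library with the highest value lay above 2 of the 3 Col-0 libraries. The means were 156 ± 27.6 and 131 ± 18.5 CPM, with a log2FC of -0.25 (standard error 0.137, 95% interval -0.56 to 0.06, adjusted p = 0.241 from edgeR). Within each experiment, however, cepd was lower than Col-0, by log2 differences of -0.19, -0.21 and -0.24. When the replicate number entered the fit as a block, the log2FC was -0.21 (standard error 0.049) and passed the test (adjusted p = 0.0116). The log2FC was -0.37 without Col-0 replicate 1 and -0.11 without Col-0 replicate 4. Over the 15 alternative settings the adjusted p ranged from 0.0116 to 0.659.

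ATG8B, the closest relative of ATG8A, had 13.2, 24.7 and 29.7 CPM in Col-0 and 15.7, 15.4, 16.9 and 16.8 in cepd. The cepd libraries were close together and lay between Col-0 replicate 1 and the other two Col-0 libraries. The means were 22.5 ± 8.45 and 16.2 ± 0.765 CPM, and the log2FC of -0.48 had the widest interval of the family (-0.99 to 0.03, adjusted p = 0.182 from edgeR). In experiment 1 cepd was higher by 0.25 on the log2 scale, and in experiments 3 and 4 it was lower, with -0.55 and -0.83. Without Col-0 replicate 1 the log2FC was -0.75 and passed the test (adjusted p = 0.000424), whereas without Col-0 replicate 4 it was -0.23 (adjusted p = 0.537). These were the ends of the range of adjusted p over the 15 alternatives.

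ATG8C had 28.0, 30.8 and 37.5 CPM in Col-0 and 30.2, 31.3, 33.7 and 36.8 in cepd. The cepd libraries lay within the Col-0 range, and the log2FC was 0.04 (95% interval -0.20 to 0.29, adjusted p = 0.826 from edgeR). ATG8D had 21.3, 26.4 and 28.6 CPM in Col-0 and 21.9, 20.2, 23.8 and 24.2 in cepd. Here cepd replicate 2 was the lowest of all 7 libraries and Col-0 replicate 4 the highest, and the log2FC was -0.18 (95% interval -0.42 to 0.07, adjusted p = 0.296 from edgeR). Without Col-0 replicate 1, the log2FC of ATG8D was -0.29 and passed the test (adjusted p = 0.0453), whereas without Col-0 replicate 4 it was -0.08 (adjusted p = 0.696), and the other alternatives lay between these adjusted p.

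ATG8E had 73.3, 74.9 and 109 CPM in Col-0 and 67.5, 83.8, 85.8 and 96.9 in cepd. Its genotypes overlapped almost fully, and the log2FC was -0.04 (95% interval -0.40 to 0.32, adjusted p = 0.888 from edgeR). ATG8F, its closest relative, had 78.0, 81.3 and 95.6 CPM in Col-0 and 88.3, 97.5, 99.8 and 100.5 in cepd. All but 1 of the cepd libraries lay above every Col-0 library. The means were 85.0 ± 9.39 and 96.6 ± 5.65 CPM, and the log2FC of 0.18 (95% interval -0.01 to 0.38) did not pass the test (adjusted p = 0.184 from edgeR). Within experiments cepd was higher in 3 of 3 pairs, with log2 differences of 0.18, 0.30 and 0.07, and the blocked fit called ATG8F (log2FC 0.18, standard error 0.059, adjusted p = 0.0466). Without Col-0 replicate 4 the log2FC was 0.28 (adjusted p = 0.0549), and over the 15 alternatives the adjusted p ranged from 0.0466 to 0.410.

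ATG8G, the least abundant member, had 11.3, 14.2 and 15.7 CPM in Col-0 and 10.1, 10.6, 9.95 and 12.9 in cepd. Of the cepd libraries only replicate 4 lay above the lowest Col-0 library. The means were 13.7 ± 2.28 and 10.9 ± 1.37 CPM, with a log2FC of -0.34 (standard error 0.132, 95% interval -0.63 to -0.04, unadjusted p = 0.0291, adjusted p = 0.109 from edgeR). In experiments 1, 3 and 4 cepd was lower by log2 differences of -0.16, -0.51 and -0.29. The blocked fit called it lower (log2FC -0.32, standard error 0.090, adjusted p = 0.0247), and so did the fit without Col-0 replicate 1 (log2FC -0.47, adjusted p = 0.0190). Without Col-0 replicate 4 the log2FC was -0.23 (adjusted p = 0.341), and the other alternatives lay between these last 2 adjusted p.

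For the members that end at the glycine, the genotypes differed by less than the spread between libraries. ATG8H had 56.9, 53.9 and 65.6 CPM in Col-0 and 51.0, 52.0, 59.0 and 61.0 in cepd, a log2FC of -0.08 (95% interval -0.29 to 0.14, adjusted p = 0.616 from edgeR). ATG8I had 31.9, 35.5 and 42.6 CPM in Col-0 and 31.1, 32.9, 35.8 and 36.9 in cepd, a log2FC of -0.10 (95% interval -0.34 to 0.13, adjusted p = 0.540 from edgeR). For both, the libraries of the genotypes overlapped. The intervals of all 9 members lay within -1 and 1 on the log2 scale, so changes past the 2-fold threshold lay outside every interval of this fit.

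**Figure D2:**
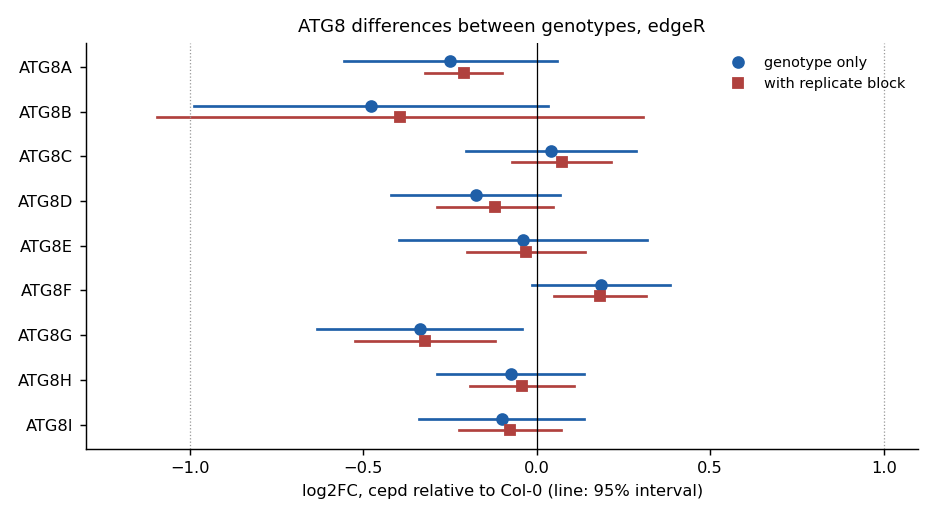
log2FC of cepd relative to Col-0 (horizontal axis) for each ATG8 gene from edgeR, with 95% intervals as lines; circles are from the fit on genotype only, squares from the fit with the replicate block. With the block, the intervals of ATG8A and ATG8G lie below 0 and that of ATG8F above 0, while the interval of ATG8B reaches -1.09.

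With the replicate block, 2 members were thus called lower and 1 higher, where the same fit called 13.2% of all genes lower and 13.9% higher. The members' counts are to be read against these shares. Without Col-0 replicate 1, 3 members were called lower (ATG8B, ATG8D and ATG8G) and 0 higher, against 12.4% and 12.5% of all genes in that fit. The block fit rests on 3 pairs of libraries with equal replicate numbers, and its calls depend on this pairing. Since cepd replicate 2 has no Col-0 partner, it does not add to the estimate.

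The libraries of the experiments differed from each other in a way that the ATG8 genes shared. Col-0 replicate 4 was the highest Col-0 library for 9 of 9 members, and Col-0 replicate 1 the lowest for 8 of 9 (for ATG8H it was replicate 3). In cepd, replicate 4 was the highest for 8 of 9 members (for ATG8B it was replicate 3) and replicate 1 the lowest for 6. The log2 difference of replicate 4 minus replicate 1 had a median of 0.42 over the members in Col-0 (range 0.20 for ATG8H to 1.17 for ATG8B) and of 0.26 in cepd (range 0.10 for ATG8B to 0.52 for ATG8E). It was above 0 for 9 of 9 members in both genotypes, against 50.1% of all genes tested in Col-0 and 49.6% in cepd. How often these libraries were the highest or lowest over all genes was not counted. In the study's files nothing tells what differed between these experiments, and this contrast was chosen after the values were seen.

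**Figure D3:**
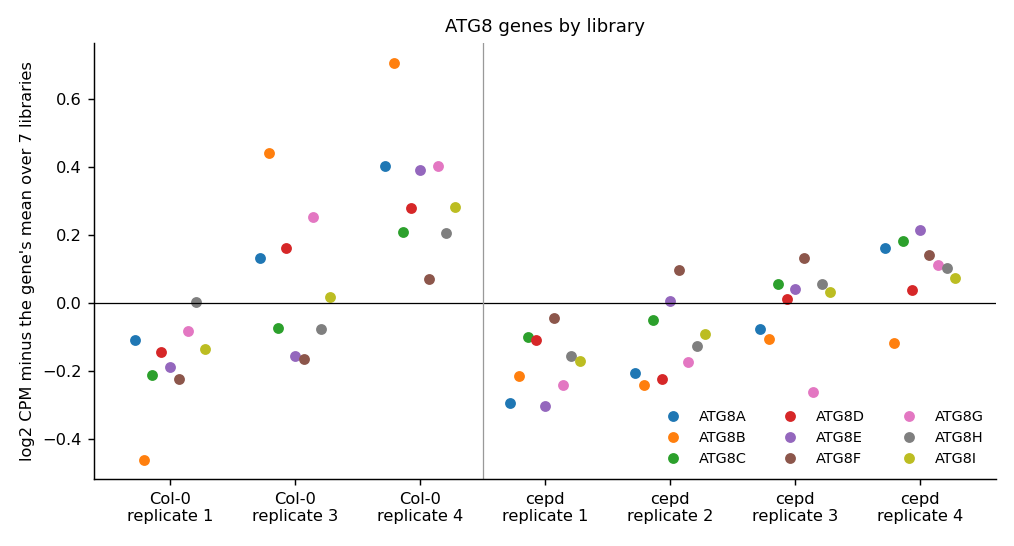
log2 CPM of each ATG8 gene minus its mean over the 7 libraries (vertical axis), by library (horizontal axis); each colour is 1 gene. All 9 genes lie above 0 in Col-0 replicate 4, and all but ATG8B lie above 0 in cepd replicate 4.

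The same contrast depended on transcript length across all genes. In Col-0 its median was 0.24 for the shortest 20% of the genes (up to 1133 bp of exon) and -0.28 for the longest 20% (from 2564 bp), and in cepd the medians were 0.18 and -0.20. The ATG8 exons are 712 bp (ATG8H) to 1864 bp (ATG8F) long. Genes of this length range that were also within the range of mean CPM of the family had a median of 0.13 in Col-0 (quartiles 0.00 and 0.26, 75.4% above 0) and of 0.10 in cepd (quartiles -0.03 and 0.21, 70.5% above 0, 4891 genes). Between genotypes, too, the median log2FC went from -0.07 in the shortest 20% to 0.10 in the longest, and it was -0.06 for genes of the length and level of the family, against -0.10 for the 9 members. RNA integrity values were not used here, and the part of transcript length in the ATG8 values was not tested.

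The makeup of the ATG8 pool was compared as well. Each member's share is its CPM per kb as a percent of the family's sum, and shares of 1 library add up, so that they are not independent of each other. ATG8F made up 8.52% to 9.53% of the pool in Col-0 and 10.2% to 11.7% in cepd. ATG8C made up 5.44% to 5.57% in Col-0 and 6.06% to 6.35% in cepd. ATG8A made up 31.2% to 33.3% in Col-0 and 28.5% to 31.1% in cepd, with almost no gap between the genotypes. ATG8G made up 2.30% to 2.62% in Col-0 and 1.84% to 2.17% in cepd. The ranges were thus apart for 4 of 9 members, 2 of them higher (ATG8C and ATG8F) and 2 lower (ATG8A and ATG8G) in cepd. When the CPM of every gene tested was divided by the same family sum, 11.1% of genes were above and 5.63% below in all cepd libraries. The shares were looked at as a description and no test was run on them. The other 5 members overlapped, ATG8E with means of 18.3% and 19.4% and ATG8H with means of 16.4% and 16.7%.

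**Figure D4:**
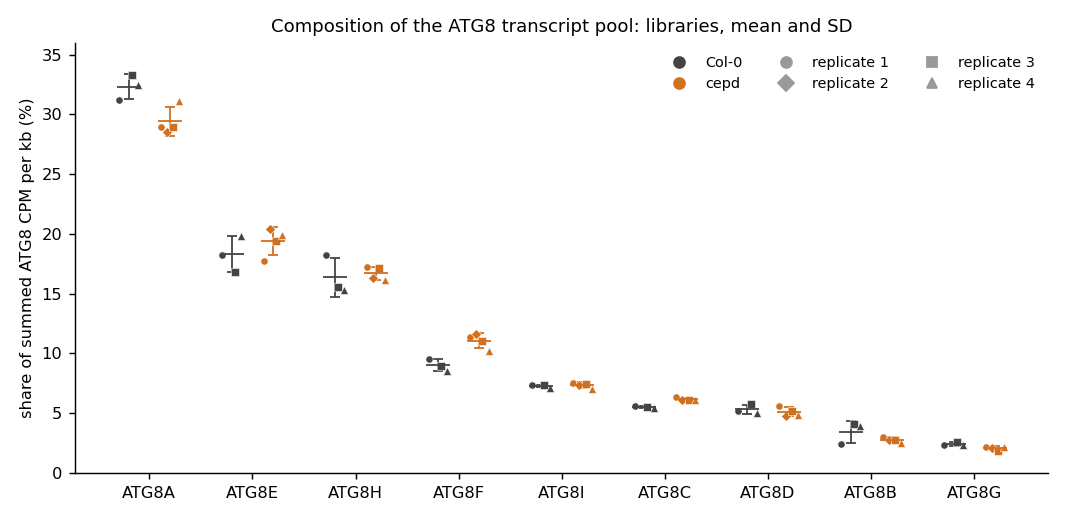
Share of each ATG8 gene in the summed ATG8 CPM per kb of its library (vertical axis, %), ordered by the Col-0 mean; each symbol is 1 library and the bars give the mean and SD for Col-0 (n = 3) and cepd (n = 4). ATG8F rises from 8.52% to 9.53% in Col-0 to 10.2% to 11.7% in cepd, and ATG8A is the largest share in every library.

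By the root mean square difference of centred log2 CPM over the 7 libraries, the genes most like ATG8G, the member with the smallest adjusted p, were AT2G18360 (0.061), AT4G28930 (0.063), WOX12 (0.064), AT3G46730 (0.064) and AT1G06265 (0.065). WOX12 is a homeobox gene known from the formation of adventitious roots. None of these 5 passed the test, with adjusted p from 0.0894 for AT2G18360 to 0.402 for AT4G28930 in edgeR. They were picked on the same 7 libraries, genotype difference included, so these test outcomes largely follow from the choice. Whether likeness of this degree exceeds that expected among all genes was not tested.

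The other parts of the autophagy machinery were read from 6 lists of 48 genes, of which 47 could be tested. Of these, 1 was lower and 2 were higher in cepd, with 8.3% and 9.64% of all genes as the background. The median log2FC was 0.02. All cepd libraries lay below all Col-0 libraries for 4 of the 47 and above them for 2. Over all genes tested, the shares were 13.8% below and 15.3% above. Among the 9 genes of ATG8 processing and conjugation (ATG3, ATG4A, ATG4B, ATG5, ATG7, ATG10, ATG12A, ATG12B and ATG16), 0 were lower and 0 higher, and log2FC lay between -0.15 and 0.06. ATG12A, one of the 2 genes for the ubiquitin-like ATG12, had the largest adjusted p of this list (0.996) with a log2FC of 0.00.

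The ATG1 kinase complex starts the formation of autophagosomes, and it held both genes that were higher. ATG1C, one of the ATG1 kinases, had 32.1, 28.4 and 29.6 CPM in Col-0 and 41.3, 43.9, 40.1 and 40.2 in cepd. Every cepd library was above every Col-0 library, and the log2FC was 0.46 (standard error 0.071, adjusted p = 0.00210 from edgeR). ATG1T, a truncated ATG1 of plants, had 5.79, 5.29 and 6.60 CPM in Col-0 and 7.91, 8.76, 8.73 and 8.75 in cepd. Its genotypes did not overlap either, and the log2FC was 0.53 (standard error 0.100, adjusted p = 0.00599 from edgeR). Both calls were kept in all 15 alternatives, with adjusted p up to 0.0131 for ATG1C and 0.0270 for ATG1T. The other 6 members, ATG1B among them (log2FC 0.01, adjusted p = 0.968), did not pass the test.

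The PI3 kinase complex, which makes the lipid signal at the site of formation, had 0 of 6 genes lower and 0 higher, and ATG6 had the largest adjusted p (0.943) with a log2FC of 0.01. VPS15, the regulatory partner of the kinase VPS34, did not pass without the block (log2FC 0.24, adjusted p = 0.291). It was called with the block (log2FC 0.20, adjusted p = 0.0374) and without Col-0 replicate 1 (0.43, adjusted p = 0.0268), and its adjusted p reached 0.625 without Col-0 replicate 4. Of the membrane supply and lipid transfer proteins ATG9, ATG2 and ATG18, 9 of 10 were tested and 0 were called, and ATG18C had the largest adjusted p (0.920). ATG18E was not tested, as it reached no more than 0.064 CPM in any library. ATG18A, a lipid-binding protein required for autophagy in Arabidopsis, had 62.9, 68.6 and 77.9 CPM in Col-0 and 53.3, 59.2, 62.3 and 61.5 in cepd. Its groups did not overlap, and it was called with the block (log2FC -0.24, adjusted p = 0.0148) but not without it (log2FC -0.24, adjusted p = 0.0968). ATG2 was called with the block as well (log2FC 0.28, adjusted p = 0.0221, against 0.34 and 0.208). Both were also called without Col-0 replicate 1 (adjusted p = 0.0312 for ATG18A and 0.0103 for ATG2), and without Col-0 replicate 4 their adjusted p was 0.295 and 0.488.

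Of the 7 proteins that bind ATG8 on the cargo side, 1 was lower and 0 were higher. RPN10, which is also a subunit of the proteasome and serves in Arabidopsis as its autophagy receptor, had 225, 248 and 255 CPM in Col-0 and 190, 195, 208 and 212 in cepd. All cepd libraries were below all Col-0 libraries, and the log2FC was -0.27 (standard error 0.074, adjusted p = 0.0322 from edgeR). The call was lost without Col-0 replicate 3 (adjusted p = 0.114), Col-0 replicate 4 (0.0980), cepd replicate 1 (0.0891), cepd replicate 2 (0.0895) or cepd replicate 3 (0.0672). NBR1, the receptor for ubiquitinated aggregates and an autophagy substrate itself, was named after its values were seen. It had 355, 426 and 440 CPM in Col-0 and 376, 410, 382 and 375 in cepd, and its log2FC was -0.08 (adjusted p = 0.558 from edgeR). ATI2 had the largest adjusted p of this list (0.886). Like RPN10, DSK2A and DSK2B had all cepd libraries below all Col-0 libraries. Neither passed the test (adjusted p = 0.144 and 0.439 from edgeR).

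Among the 8 upstream kinases and transcriptional regulators, 0 were lower and 0 higher. TGA9, also named after its values were seen, had 59.9, 54.1 and 58.6 CPM in Col-0 and 53.8, 60.2, 59.7 and 61.0 in cepd (log2FC 0.03, adjusted p = 0.818 from edgeR). KIN10, the SnRK1 kinase that promotes autophagy, had the largest adjusted p (0.838). TOR, the kinase that restrains autophagy in well-fed cells, had 117, 76.4 and 65.9 CPM in Col-0 and 127, 129, 102 and 85.4 in cepd. It did not pass without the block (log2FC 0.36, adjusted p = 0.277) and did with it (0.30, adjusted p = 0.00919). RAPTOR1A, a partner of TOR, behaved likewise (log2FC 0.37, adjusted p = 0.0592, and 0.34, adjusted p = 0.00992, with the block). DESeq2 also called RAPTOR1A (adjusted p = 0.0372), and so did edgeR on library totals (adjusted p = 0.0485). Without Col-0 replicate 1, TOR (adjusted p = 0.0192) and RAPTOR1A (adjusted p = 0.00555) were called, and their adjusted p over the 15 alternatives reached 0.603 and 0.200. With the block, 2 of the 47 genes were lower and 6 higher, against 13.2% and 13.9% of all genes. TOR, ATG2, VPS15 and RAPTOR1A have 8200, 6266, 5703 and 5281 bp of exon. ATG1C, also higher with the block, has 3580 bp. All of these belong to the longest 20% of genes, whose median log2FC was 0.10. ATG1T has 1498 bp. The part of transcript length in these calls was not tested.

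**Figure D5:**
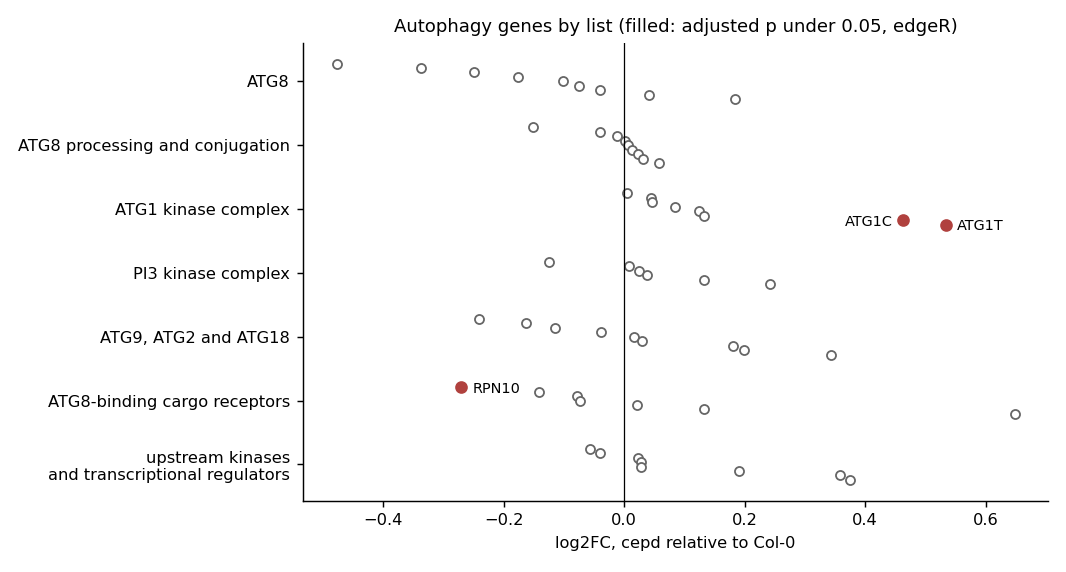
log2FC of cepd relative to Col-0 (horizontal axis) of the ATG8 genes and of 6 lists of other autophagy genes; each circle is 1 gene, filled where the adjusted p from edgeR without the block is under 0.05. Only ATG1C and ATG1T (higher) and RPN10 (lower) are filled, and the ATG8 genes lie between -0.48 and 0.18.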

How the data were processed

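RNA of LN roots had been sequenced from 3 Col-0 and 4 cepd libraries. The authors deposited unnormalized counts for each gene. The submitters' processing notes name CASAVA 1.8.2, STAR 2.5.2b-2, HTSeq 0.9.1, DESeq2 2.11.40.6 and TAIR10. The strand setting and the handling of reads with several matches were not given in the sources used here. Reads of overlapping genes can therefore be lost or shared.

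Groups and replicate numbers were taken from the sample labels. Counts were tested in R 4.3.3 with edgeR 4.0.16. Genes passed filterByExpr (minimum count 10, minimum total 15), libraries were scaled by TMM, and robust quasi-likelihood tests of genotype were adjusted by Benjamini-Hochberg over 20600 genes. The spread between libraries amounted to a biological coefficient of variation of 11.2%. CPM used the TMM-scaled library sizes. Standard errors were computed by dividing the absolute log2FC by the root of its F value. The 95% intervals were the log2FC plus and minus this standard error times a t quantile on the total degrees of freedom. SD are between libraries. The test was checked on simulated data. DESeq2 1.42.0, limma-voom (limma 3.58.1), DESeq2 size factors, library totals, no filter, a filter of 1 CPM in 3 libraries, nuclear genes only, the replicate block and leaving out each library were the alternatives.

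Equal replicate numbers were treated as the same independent experiment of the study. After subtraction of the genotype mean, libraries with the same number correlated over genes at 0.435 (number 1), 0.189 (number 3) and 0.274 (number 4), each above 0.1. Correlations above 0.1 were also found for differently numbered pairs, namely 0.136 (Col-0 1, cepd 2), 0.192 (Col-0 3, cepd 4) and 0.135 (Col-0 4, cepd 3). No libraries of a genotype agreed within sampling noise (chi-square per degree of freedom 6.08 to 38.8).

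The ATG8 genes and the lists were chosen with earlier results of these data known. Named were all ATG8 genes, from each list up to 4 genes per direction with the smallest adjusted p and the gene with the largest, and the 5 genes most like ATG8G. VPS15, ATG2, ATG18A, TOR, RAPTOR1A, NBR1, TGA9, DSK2A, DSK2B and the contrasts by transcript length were added after values were seen. Exon lengths, coding sequences and gene starts were read from RefSeq TAIR10.1 with Biopython 1.88, and all 32548 nuclear identifiers matched it. Symbols for ATG8 follow the common names. RefSeq lists AT4G21980 as APG8A and AT3G15580 as APG8H.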

Additional observations from a re-analysis of the deposited data

Results flagged for a closer look

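ATG1T in cepd had 8.75, 8.76 and 8.73 CPM in replicates 4, 2 and 3 and 7.91 CPM in replicate 1, a library far below the other 3 relative to their spread. It was still above every Col-0 library. Such a gap was looked for in 26 groups of cepd values, and chance alone marks about 5 in 100 groups.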

How the results depend on the processing

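Under DESeq2, limma-voom, other size factors, library totals, either filter and nuclear genes only, 0 ATG8 genes were called, and no ATG8 log2FC changed sign. Over all genes, these fits called from 6.32% to 10.3% lower and from 7.13% to 11% higher. With the replicate block 2 ATG8 genes were lower and 1 higher. Of the other autophagy genes 2 were then lower and 6 higher, and of all genes 2727 were lower. The block changed no other call among the ATG8 and the listed autophagy genes. Without Col-0 replicate 1, 3 ATG8 genes were lower (ATG8B, ATG8D and ATG8G) and 8 other autophagy genes higher, where 12.4% of all genes were lower and 12.5% higher. When 1 library was left out, the ATG8 genes called lower ranged from 0 to 3, the other autophagy genes from 0 to 2 lower and from 2 to 8 higher, and all genes from 998 to 2591 lower and from 1167 to 2597 higher. The fewest calls over all genes came without Col-0 replicate 3.

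Signs changed only for genes near 0. When 1 library was left out, log2FC ranged from -0.052 to 0.17 for ATG8C, -0.15 to 0.17 for ATG8E, -0.14 to 0.011 for ATG8H, -0.20 to 0.022 for ATG8I, -0.094 to 0.18 for ATG12A, -0.029 to 0.034 for ATG1B, -0.018 to 0.036 for ATG6, -0.028 to 0.083 for ATG18C, -0.043 to 0.067 for ATI2 and -0.014 to 0.069 for TGA9. DESeq2 and its size factors in edgeR gave -0.0064 and -0.0077 for ATG12A and -0.0022 and -0.0030 for ATG1B. The block gave -0.028 for ATG1B and -0.013 for ATG6. The cause of these changes was not tested. Library totals shifted the median of all genes to 0.039. Each member had at least 332 counts per library, and each comparison rests on 3 Col-0 and 4 cepd libraries.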
